A study of Homo sapiens with 9 samples.

Results

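The 35 aminoacyl-tRNA synthetase genes described here comprise 19 that encode cytosolic enzymes and 16 that encode mitochondrial ones, taken by symbol from a table of 60612 genes, with the suffix 2 marking the mitochondrial enzyme. The symbols were chosen by name and not by a cutoff on expression, but with earlier results of these data known. All 35 were found and all passed the expression filter (3 or more libraries with an FPKM, fragments per kilobase of transcript normalised to library depth, of 1 or higher), among 12830 genes that did. FARS2 was the member nearest to that filter, with 8 of 9 libraries at or above it.

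Messenger RNA was measured by RNA sequencing in VCaP, a line established from human prostate cancer that carries the TMPRSS2-ERG fusion. Cells received a control siRNA, siRNA 1 against KMT2C or siRNA 2 against KMT2C for 4 days, with 3 libraries in each group. The labels give the control genotype as KMT2C normal, name no other allele or agent, and do not say whether the libraries came from separate cultures, so the p-values measure only the spread between these libraries, which may be technical. KMT2C encodes a histone H3 lysine 4 methyltransferase of enhancers, and the siRNA sequences were not among the sources used.

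An aminoacyl-tRNA synthetase joins an amino acid to the transfer RNA that carries its anticodon, which is the step that fixes the genetic code. Cytosolic enzymes serve the ribosomes of the cytosol, and most mitochondrial enzymes are separate nuclear genes whose products are imported. KARS1 and GARS1 serve both compartments, and QARS1 and EPRS1 have no exact mitochondrial twin, since mitochondrial glutaminyl-tRNA is made from misacylated glutamyl-tRNA by an amidotransferase and EPRS1 joins the glutamate and proline activities in one chain. Several cytosolic enzymes sit together in the multisynthetase complex. Many cytosolic synthetase genes are known targets of ATF4, the transcription factor of the integrated stress response, which a cell mounts when amino acids run short or when the endoplasmic reticulum is stressed. ATF4 binds with a C/EBP partner at the C/EBP-ATF response element (CARE).

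The promoter letters are shown first because the cytosolic genes with the strongest difference between the siRNAs include several with a CARE. RefSeq promoters on GRCh38.p14, windows of 300 bases around the listed transcript starts, were matched by symbol for 30 of the 35 members. VARS1, LARS1, YARS1, AARS2 and VARS2 had no entry. The core TGATGNAA, searched on both strands, was present in the promoters of 7 of 16 cytosolic genes and 1 of 14 mitochondrial genes, YARS2. By promoter, 7 of 21 cytosolic entries (33.3%) and 1 of 18 mitochondrial entries (5.56%) held it, against 3.62% of all 35116 promoters in the table. The windows below hold it in capitals, 5′ to 3′ on the gene's strand.
AARS1 chr16:70289675-70289704 (minus strand): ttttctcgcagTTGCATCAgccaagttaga
CARS1 chr11:3057407-3057436 (minus strand): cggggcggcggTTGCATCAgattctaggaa
GARS1 chr7:30594834-30594863 (plus strand): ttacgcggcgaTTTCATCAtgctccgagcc
IARS1 chr9:92293692-92293721 (minus strand): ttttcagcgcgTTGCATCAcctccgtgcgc
MARS1 chr12:57488053-57488082 (plus strand): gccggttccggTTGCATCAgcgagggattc
NARS1 chr18:57621804-57621833 (minus strand): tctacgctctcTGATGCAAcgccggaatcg
TARS1 chr5:33440956-33440985 (plus strand): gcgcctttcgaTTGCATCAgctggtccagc
In 6 of these 7 genes the letters read in the reverse orientation, and NARS1 holds them in the forward one. GARS1 differs from the others at the free position of the core. CARS1, GARS1 and TARS1 have 2 listed promoters each, and only 1 of each holds the core. The GARS1 and MARS1 windows lie well inside their genes, which span 30580533 to 30634033 and 57475445 to 57517569. The E-box CACGTG, a palindrome bound by MYC and related factors, does not overlap that core in any promoter shown. It was present in IARS1 among 16 cytosolic genes and in CARS2, EARS2 and MARS2 among 14 mitochondrial genes. By promoter, 4.76% of cytosolic and 22.2% of mitochondrial entries held it, with the EARS2 site counted from each of its listed starts, against 7.26% of all promoters.
CARS2 chr13:110706501-110706588 (minus strand): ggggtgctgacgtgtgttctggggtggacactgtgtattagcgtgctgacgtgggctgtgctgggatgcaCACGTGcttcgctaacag
EARS2 chr16:23557348-23557377 (minus strand): cagggagaagccCACGTGtgctattccatc
MARS2 chr2:197705288-197705375 (plus strand): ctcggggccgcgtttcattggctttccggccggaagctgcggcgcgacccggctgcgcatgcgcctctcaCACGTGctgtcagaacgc
These 3 windows are shown because their genes passed the test with both siRNAs, so they cannot bear on whether the E-box goes with a rise. IARS1 also holds it and rose with siRNA 2 only. TARS2, HARS1 and KARS1 passed with both siRNAs and have a listed promoter without it. CARS2 has 2 listed promoters, and only 1 holds the E-box. That window lies well inside the gene, which spans 110641412 to 110713603. A match of letters is a description of the sequence and not a measurement of binding.

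KMT2C fell with both siRNAs, by 2.81 ± 0.13 (log2, siRNA 1) and 2.98 ± 0.13 (siRNA 2). Its exact 2-sided permutation p for the 6 siRNA libraries against the 3 control libraries was 0.0119, the smallest possible with 84 splits. Library totals ran from 58462215 to 70726213 counts, and the 35 members took 0.274% to 0.291% of the counts in control libraries, 0.301% to 0.308% with siRNA 1 and 0.385% to 0.405% with siRNA 2. All 10 luminal prostate markers were expressed, with a summed level of 1766 to 1858 FPKM in control libraries, 930.6 to 947 with siRNA 1 and 959 to 978 with siRNA 2. The design text calls the RNA retinal, whereas the 8 retina markers summed to at most 0.922 FPKM in any library, with RCVRN, CRX, GNAT1 and OPN1SW listed at 0.0001, the value for a gene without counts, in the control libraries. Leukocyte and endothelial markers, 3 of each, summed to at most 0.173 and 0.361 FPKM. Of 4 fibroblast markers LUM, a matrix proteoglycan gene, was the one that passed the expression filter. It rose by 2.92 ± 0.23 with siRNA 2 (adjusted p = 1.67e-05) and fell by 0.85 ± 0.22 with siRNA 1 (adjusted p = 0.0157), while the sum of the list went from 1.48 to 2.26 FPKM in control libraries to 0.684 to 0.874 with siRNA 1 and 7.12 to 12.4 with siRNA 2. The collagen genes COL1A1 and COL1A2 and the proteoglycan gene DCN were below 1 FPKM in every library. The part of this signal in the results below was not tested. In such bulk libraries fewer cells of a type and less RNA per cell cannot be told apart.

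In control cells the cytosolic enzymes were the more abundant class. Their 19 transcripts summed to 319 ± 13.6 FPKM (SD, n = 3) and the 16 mitochondrial transcripts to 124 ± 3.69. NARS1, which charges tRNA with asparagine, was the highest cytosolic gene (ENSG00000134440, chromosome 18, 57600656 to 57621836), at 36.6, 37.7 and 35.4 FPKM in the control libraries. HARS1, the histidine enzyme, was the lowest at 2.38, 2.25 and 2.65 FPKM. Ranks and ratios between genes, here and below, hold for FPKM and depend on the transcript length used for each gene. Among mitochondrial enzymes the isoleucine enzyme IARS2 led (ENSG00000067704, chromosome 1, 220094132 to 220148041), at 29.3, 28.2 and 28.4 FPKM, and the phenylalanine enzyme FARS2 was lowest (ENSG00000145982, chromosome 6, 5261044 to 5771583), at 1.09, 1.17 and 1.02 FPKM. NARS1 was followed by TARS1 and EPRS1, whose control libraries ran from 30.1 to 37.9 and from 29.4 to 35.3 FPKM. TARS1 overlapped both of the others, and EPRS1 lay just below the lowest NARS1 library. IARS2 stood clear of the next mitochondrial gene, AARS2, by more than the spread of either. Coordinates here and below are those of the deposited table, on GRCh38.

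**Figure D1:**
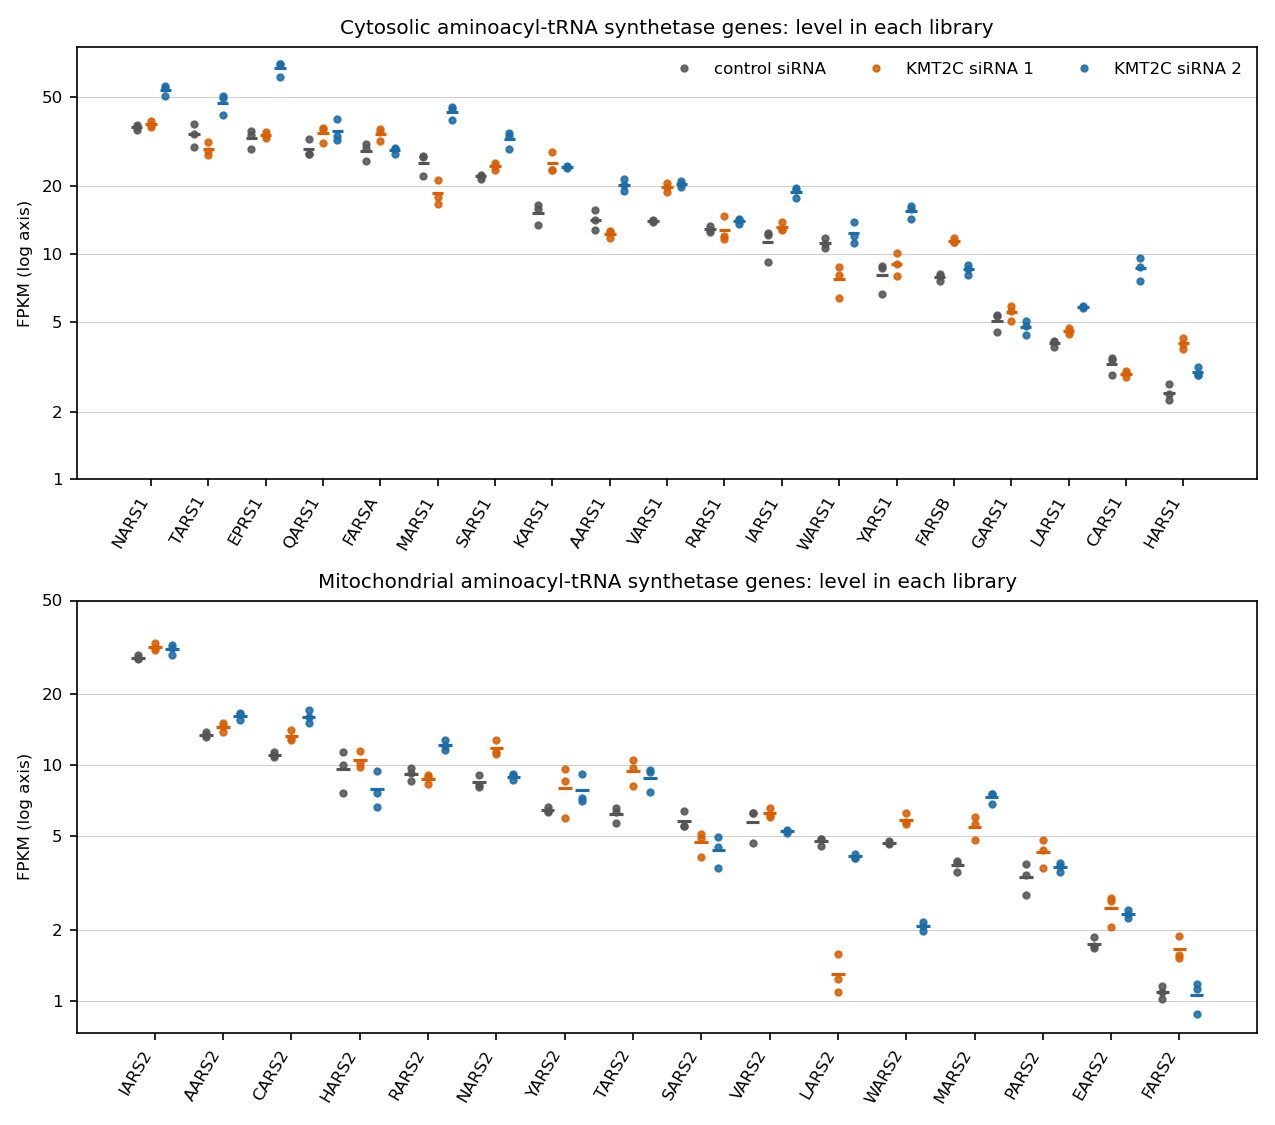
Level of each cytosolic (top) and mitochondrial (bottom) aminoacyl-tRNA synthetase gene in FPKM on a log axis, ordered by the control mean; points are single libraries and short lines group means of 3. Compared over its own groups, each of EPRS1, MARS1 and CARS1, among other genes, is highest with siRNA 2. In the same way LARS2 is lowest with siRNA 1 and WARS2 is lowest with siRNA 2.

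The summed cytosolic level was highest with siRNA 2, and the mitochondrial sum was similarly above control with both siRNAs. These sums were not tested. The cytosolic sum was 322, 331 and 304 FPKM in control, 348, 335 and 343 in siRNA 1 and 476, 476 and 441 in siRNA 2 libraries. The siRNA 2 libraries lay above all others, and the siRNA 1 libraries lay just above the control libraries. The mitochondrial sum was 125, 120.4 and 128 FPKM in control, 138, 144 and 139 in siRNA 1 and 139.8, 135 and 144 in siRNA 2 libraries, so both siRNA groups lay above control and overlapped each other. The cytosolic sum was 2.57 ± 0.183 times the mitochondrial sum in control cells, 2.43 ± 0.101 times under siRNA 1 and 3.33 ± 0.240 times under siRNA 2 (SD, n = 3 each). EPRS1 alone gave 23.6% of the 145 FPKM that separated the mean cytosolic sums of siRNA 2 and control, and the 5 genes EPRS1, MARS1, NARS1, TARS1 and SARS1 together gave 63.5%. The FPKM of all genes summed to 315729 to 318799 in siRNA 2 libraries and to 292222 to 302760 in the others, so the scale of the deposited FPKM was itself slightly higher with siRNA 2. The fold changes below come from the counts.

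**Figure D2:**
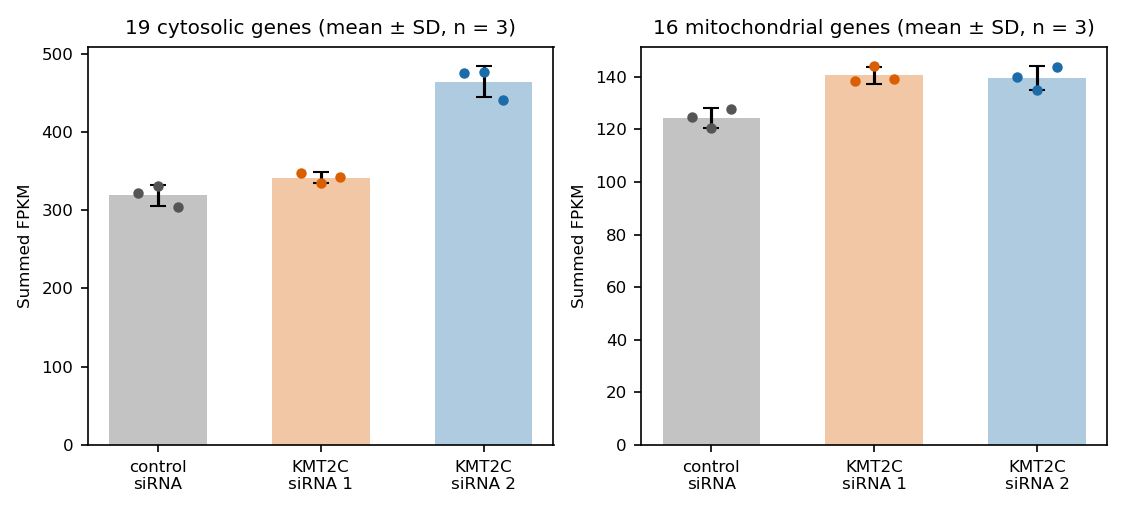
Summed FPKM of the 19 cytosolic and 16 mitochondrial genes in each group; bars are means with SD of 3 libraries and points are libraries. The cytosolic siRNA 2 libraries, at 441 to 476 FPKM, lie above all others, and the mitochondrial sums of both siRNA groups overlap.

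To ask how the synthetase genes respond when KMT2C is lowered, each siRNA was compared with the same 3 control libraries, with edgeR's quasi-likelihood F test and Benjamini-Hochberg adjustment over all genes tested, and a gene was called when its adjusted p was under 0.05. Log2 fold changes are given ± SE. With siRNA 1, 5 cytosolic genes rose, 3 fell and 11 did not pass the test, with a median log2 fold change of 0.13. With siRNA 2, 13 cytosolic genes rose, none fell and 6 did not pass, with a median of 0.48. Of the mitochondrial genes 7 rose and 1 fell with siRNA 1 (median 0.27), and 6 rose and 2 fell with siRNA 2 (median 0.07). Over all genes tested 21.2% were called higher and 20.5% lower with siRNA 1, and 24.4% higher and 24.9% lower with siRNA 2, with medians of 0.01 and 0.02. The 13 of 19 cytosolic genes higher with siRNA 2 are a larger share than that background, and the 5 of 19 with siRNA 1 are close to it.

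The difference between the siRNAs was tested directly in the contrast of siRNA 1 with siRNA 2. It called 22 members, 7 higher and 15 lower with siRNA 1, where 20.6% of all genes tested were called higher and 18.9% lower. Of the cytosolic genes 11 were lower and 4 higher with siRNA 1, with a median difference of -0.37, and of the mitochondrial genes 4 were lower and 3 higher, with a median of 0.12. The members called higher with both siRNAs numbered 8, namely HARS1, KARS1, LARS1, VARS1, CARS2, EARS2, MARS2 and TARS2, and no member was called lower with both. Over all genes 13.2% were called higher with both and 12.6% lower with both. AARS1, MARS1 and WARS2 were called in opposite directions, and 9 of the 35 members passed with neither siRNA. Of all 12830 genes tested, 416 were called in opposite directions and 4886 passed with neither. KARS1, VARS1 and MARS2 were called with both siRNAs under all 19 alternative settings run, while the count of 8 fell to 3 without control library 1, to 4 without siRNA 2 library 1 or library 3, and to 5 without control library 2 or siRNA 2 library 2.

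**Figure D3:**
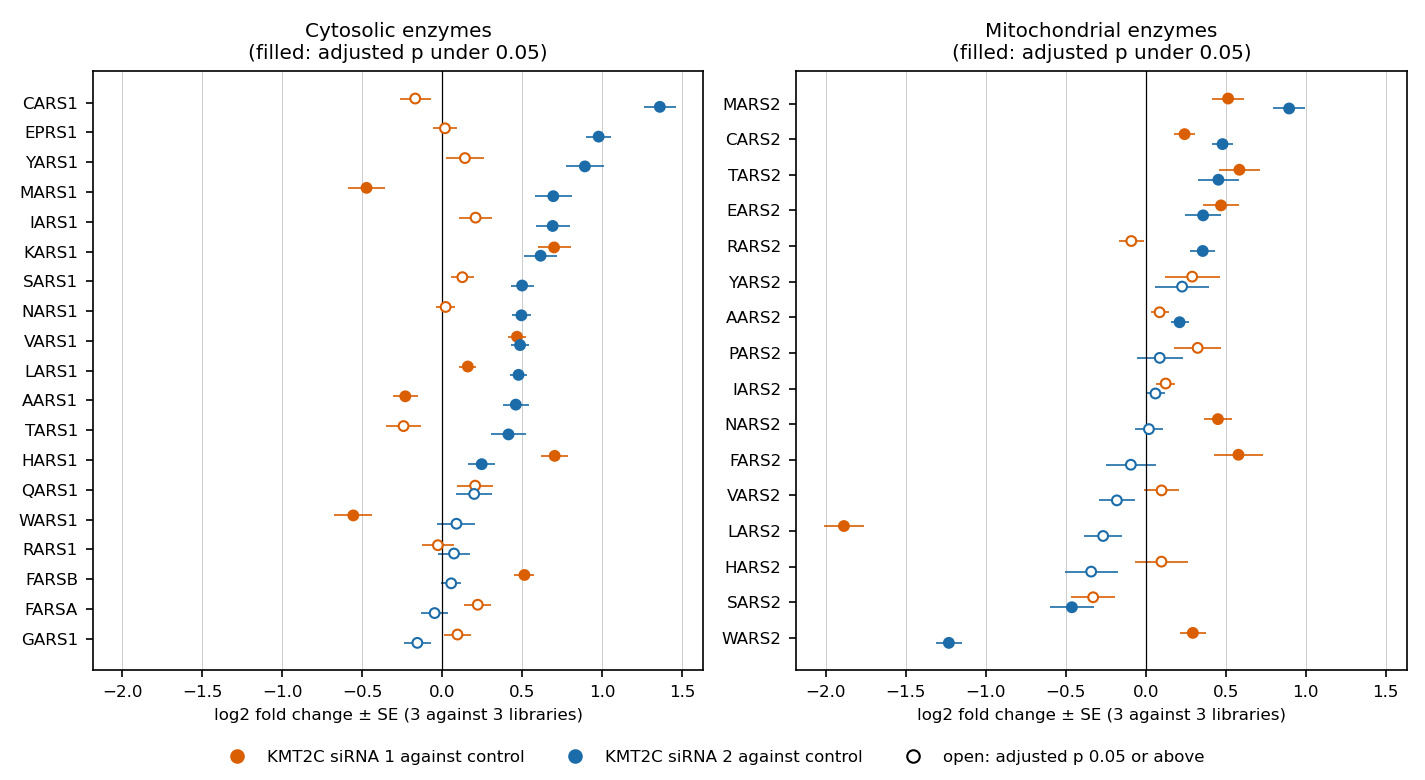
Log2 fold change ± SE of each gene with siRNA 1 (orange) and siRNA 2 (blue) against control, ordered by siRNA 2; filled points have an adjusted p under 0.05. Among cytosolic genes 13 blue points are filled to the right of 0 and none to the left, and LARS2 and WARS2 lie far to the left with siRNA 1 and siRNA 2 respectively.

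Among the 7 cytosolic members whose proteins belong to the multisynthetase complex, a grouping made after their values were seen, 5 rose with siRNA 2, with a median of 0.61, and 2 rose and 1 fell with siRNA 1, with a median of 0.16. Over all genes tested 24.4% rose with siRNA 2, and 21.2% rose and 20.5% fell with siRNA 1. EPRS1, the glutamate and proline enzyme (ENSG00000136628, chromosome 1, 219968600 to 220046530), had 35.3, 33.8 and 29.4 FPKM in control, 32.8, 34.8 and 33.8 in siRNA 1 and 70.1, 69.96 and 61.4 in siRNA 2 libraries. Its siRNA 2 libraries stood apart from the rest, and those of siRNA 1 lay within the control range. It rose by 0.98 ± 0.08 with siRNA 2 (adjusted p = 1.66e-05), a 1.97-fold change, and had 0.02 ± 0.08 with siRNA 1 (adjusted p = 0.880). In the direct contrast the siRNAs differed by -0.96 ± 0.08 (adjusted p = 3.31e-05).

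MARS1, the methionine enzyme that charges both initiator and elongator tRNA (ENSG00000166986, chromosome 12, 57475445 to 57517569), moved in opposite directions. It stood at 27.4, 26.9 and 22.3 FPKM in control, 21.3, 16.8 and 17.95 in siRNA 1 and 44.3, 45.1 and 39.4 in siRNA 2 libraries, with no overlap between any of the groups. It fell by 0.47 ± 0.11 with siRNA 1 (adjusted p = 0.0104) and rose by 0.69 ± 0.11 with siRNA 2 (adjusted p = 0.00111). The siRNAs differed by -1.17 ± 0.12 (adjusted p = 9.84e-05), and both calls held under all 19 alternatives. In GENCODE 29 its exons share 519 bases (7.38%) with ARHGAP9 and 355 bases (5.05%) with the stress gene DDIT3, both on the opposite strand, and whether the libraries kept strand is not stated in the sources, so reads there cannot be told apart. DDIT3 passed with neither siRNA, at 0.18 ± 0.34 and 0.85 ± 0.34.

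IARS1, the isoleucine enzyme, had 12.4, 12.2 and 9.25 FPKM in control, 12.9, 13.01 and 13.9 in siRNA 1 and 19.7, 19.2 and 17.8 in siRNA 2 libraries, the last group above all other libraries. It rose by 0.69 ± 0.11 with siRNA 2 (adjusted p = 0.000751), against 0.21 ± 0.11 with siRNA 1 (adjusted p = 0.150). LARS1, the leucine enzyme, which is also a leucine sensor for mTORC1, had 4.14, 4.09 and 3.85 FPKM in control, 4.73, 4.44 and 4.56 in siRNA 1 and 5.88, 5.81 and 5.78 in siRNA 2 libraries. Its groups formed 3 separate steps with no overlap, and it rose by 0.16 ± 0.05 (adjusted p = 0.0435) and 0.48 ± 0.05 (adjusted p = 0.000132). The first of these calls held in 5 of 18 alternatives, and it was lost without any 1 of the 9 libraries except siRNA 1 library 2, with adjusted p from 0.0659 to 0.117.

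KARS1, the lysine enzyme, which also makes the signalling molecule Ap4A, rose with both siRNAs. It had 13.5, 16.5 and 15.9 FPKM in control, 23.7, 23.7 and 28.5 in siRNA 1 and 24.8, 24.03 and 24.4 in siRNA 2 libraries, and both siRNA groups lay above control and overlapped. The rises were 0.70 ± 0.10 (adjusted p = 0.000884) and 0.61 ± 0.10 (adjusted p = 0.00123), with a difference of 0.08 ± 0.10 that did not pass (adjusted p = 0.559). QARS1, the glutamine enzyme, and RARS1, the arginine enzyme, passed in none of the 3 contrasts. Without siRNA 1 library 1 the RARS1 difference between the siRNAs passed (-0.23, adjusted p = 0.017). QARS1 had 0.21 ± 0.11 and 0.20 ± 0.11, and RARS1 had -0.03 ± 0.10 and 0.07 ± 0.10 with siRNA 1 and siRNA 2. Of the non-catalytic scaffold genes of the complex, AIMP2 rose by 0.74 ± 0.10 and 1.00 ± 0.10 (adjusted p = 0.000675 and adjusted p = 7.84e-05), from 5.52, 5.71 and 5.72 FPKM in control to 9.03, 10.99 and 8.89 in siRNA 1 and 12.4, 12.2 and 10.8 in siRNA 2 libraries. AIMP1 (-0.04 and -0.12) and EEF1E1 (0.47 and 0.30) did not pass with either.

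Of the other 12 cytosolic genes 8 rose with siRNA 2 and none fell, with a median of 0.44, while 3 rose and 2 fell with siRNA 1, with a median of 0.11. The share that rose with siRNA 2 was similar to that of the complex members and above the 24.4% of all genes. CARS1, the cysteine enzyme (ENSG00000110619, chromosome 11, 3000922 to 3057613), had the largest rise of any member with siRNA 2. It had 3.37, 3.48 and 2.91 FPKM in control, 2.97, 3.02 and 2.84 in siRNA 1 and 8.80, 9.63 and 7.63 in siRNA 2 libraries. The siRNA 2 libraries lay far above every other library, and those of siRNA 1 overlapped the control ones. CARS1 rose by 1.36 ± 0.10 with siRNA 2 (adjusted p = 1.06e-05), a 2.57-fold change, against -0.17 ± 0.10 with siRNA 1 (adjusted p = 0.203), and the siRNAs differed by -1.53 ± 0.10 (adjusted p = 1.13e-05).

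YARS1, the tyrosine enzyme, whose fragments act as cytokines outside the cell, followed the same pattern. It had 8.67, 8.87 and 6.66 FPKM in control, 8.05, 9.02 and 10.1 in siRNA 1 and 16.3, 15.9 and 14.4 in siRNA 2 libraries, with siRNA 2 above all other libraries and siRNA 1 overlapping control. It rose by 0.89 ± 0.12 with siRNA 2 (adjusted p = 0.000350), and the siRNAs differed by -0.75 ± 0.12 (adjusted p = 0.00138).

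NARS1 went from the control values above to 39.2, 36.7 and 37.4 FPKM with siRNA 1 and 55.6, 54.6 and 50.5 with siRNA 2. SARS1, which charges serine and also the selenocysteine tRNA, had 22.6, 22.3 and 21.6 FPKM in control, 25.4, 24.6 and 23.7 in siRNA 1 and 34.7, 33.6 and 29.3 in siRNA 2 libraries. Both genes were highest in the siRNA 2 libraries without overlap. NARS1 rose by 0.49 ± 0.06 (adjusted p = 0.000199) and SARS1 by 0.50 ± 0.07 (adjusted p = 0.000517) with siRNA 2, and neither passed with siRNA 1 (0.02 and 0.13). TARS1, the threonine enzyme, had 34.2, 37.9 and 30.1 FPKM in control, 31.6, 27.5 and 28.7 in siRNA 1 and 50.4, 49.3 and 41.7 in siRNA 2 libraries. Its siRNA 1 libraries overlapped control and its siRNA 2 libraries did not. It rose by 0.41 ± 0.11 with siRNA 2 (adjusted p = 0.0120) and had -0.24 ± 0.11 with siRNA 1 (adjusted p = 0.106), while the difference of -0.66 ± 0.11 passed (adjusted p = 0.00162).

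AARS1, the alanine enzyme, had 15.8, 14.2 and 12.8 FPKM in control, 12.7, 12.5 and 11.8 in siRNA 1 and 20.4, 21.6 and 19.02 in siRNA 2 libraries. Its siRNA 1 libraries lay just below the lowest control library and its siRNA 2 libraries above the highest. It rose by 0.46 ± 0.08 with siRNA 2 (adjusted p = 0.00145) and fell by 0.23 ± 0.08 with siRNA 1 (adjusted p = 0.0455). The fall held in 7 of 19 alternatives, and among single libraries it was lost without control library 1 or 2, siRNA 1 library 2 or 3, or any of the siRNA 2 libraries, with adjusted p from 0.0512 to 0.149. The rise held in all 19.

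WARS1, the tryptophan enzyme, best known as an interferon-induced gene, was lower with siRNA 1. It had 11.1, 11.8 and 10.7 FPKM in control, 6.42, 8.12 and 8.74 in siRNA 1 and 12.02, 13.96 and 11.2 in siRNA 2 libraries. The siRNA 1 libraries lay below all others, and the siRNA 2 libraries overlapped control. WARS1 fell by 0.56 ± 0.12 with siRNA 1 (adjusted p = 0.00598), had 0.09 ± 0.12 with siRNA 2 (adjusted p = 0.572) and differed between them by -0.64 ± 0.12 (adjusted p = 0.00298).

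The valine enzyme gene VARS1 also rose with both siRNAs. It had 14.1, 14.3 and 13.9 FPKM in control, 18.8, 20.7 and 19.9 in siRNA 1 and 19.8, 20.4 and 21.2 in siRNA 2 libraries, and rose by 0.47 ± 0.05 (adjusted p = 0.000248) and 0.49 ± 0.05 (adjusted p = 0.000112). Both siRNA groups lay above control and overlapped each other, and their difference of -0.02 ± 0.05 did not pass (adjusted p = 0.811). HARS1 went to 4.26, 3.81 and 4.00 FPKM with siRNA 1 and 2.92, 2.90 and 3.16 with siRNA 2, above the control values given earlier. It rose by 0.70 ± 0.09 (adjusted p = 0.000343) and 0.25 ± 0.09 (adjusted p = 0.0408), and by 0.46 ± 0.09 more with siRNA 1 than with siRNA 2 (adjusted p = 0.00322). The HARS1 rise with siRNA 2 held in 11 of 18 alternatives, and it was lost without control library 1 or 2, siRNA 1 library 3 or any siRNA 2 library, with adjusted p from 0.057 to 0.127.

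Phenylalanyl-tRNA synthetase is built from the FARSA and FARSB subunits, and these were among the members higher with siRNA 1 than with siRNA 2. FARSB had 7.99, 8.17 and 7.61 FPKM in control, 11.8, 11.3 and 11.4 in siRNA 1 and 8.97, 8.57 and 8.13 in siRNA 2 libraries, so the siRNA 1 libraries lay above all others. It rose by 0.51 ± 0.06 with siRNA 1 (adjusted p = 0.000319) and had 0.06 ± 0.06 with siRNA 2 (adjusted p = 0.489). FARSA had 26.02, 30.9 and 29.7 FPKM in control, 35.02, 35.9 and 31.95 in siRNA 1 and 29.5, 29.7 and 28.00 in siRNA 2 libraries, and passed with neither siRNA (0.22 ± 0.08 and -0.05 ± 0.08). Its siRNA 1 libraries were the highest, and those of siRNA 2 lay within the control range. Its difference of 0.27 ± 0.08 passed (adjusted p = 0.0337) and held in 13 of 19 alternatives. It was lost without siRNA 1 library 1 or 2 or any siRNA 2 library, with adjusted p from 0.0715 to 0.0987. Without control library 2 or siRNA 1 library 3 FARSA passed with siRNA 1 (adjusted p = 0.0483 and 0.0444).

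GARS1, the glycine enzyme, had 5.37, 5.32 and 4.54 FPKM in control, 5.06, 5.90 and 5.58 in siRNA 1 and 4.79, 5.05 and 4.37 in siRNA 2 libraries, and control overlapped both siRNA groups. Its difference of 0.25 ± 0.09 passed narrowly (adjusted p = 0.0472) and held in 5 of 19 alternatives. Without any 1 library other than control library 3 or siRNA 1 library 1 the adjusted p was 0.0548 to 0.146.

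The 7 cytosolic genes whose promoters hold the CARE core can be set beside the 9 with a listed promoter that does not. Of the 7, AARS1, CARS1, IARS1, MARS1, NARS1 and TARS1 rose with siRNA 2 and GARS1 did not pass, with a median of 0.49. With siRNA 1 none of the 7 rose and 2 fell, with a median of -0.17. Of the 9 without a match, 4 rose with siRNA 2 (median 0.20) and 3 rose and 1 fell with siRNA 1 (median 0.21). EPRS1, with the second largest rise of any member with siRNA 2, has no match in its window. Over all genes tested 24.4% rose with siRNA 2, and 21.2% rose and 20.5% fell with siRNA 1. These are descriptions of small groups, and no test of the difference was made. The promoter letters were brought forward because of these same fold changes, so this split is no independent support for a link.

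The mitochondrial members held the largest falls of the 35. Their median log2 fold change was 0.27 with siRNA 1 and 0.07 with siRNA 2, where the cytosolic members had 0.13 and 0.48. LARS2, the mitochondrial leucine enzyme (ENSG00000011376, chromosome 3, 45388561 to 45554726), had 4.86, 4.54 and 4.88 FPKM in control, 1.24, 1.10 and 1.58 in siRNA 1 and 4.07, 4.04 and 4.23 in siRNA 2 libraries. The siRNA 1 libraries were far below all others. LARS2 fell by 1.89 ± 0.13 with siRNA 1 (adjusted p = 1.64e-05), 3.69-fold, and had -0.27 ± 0.12 with siRNA 2 (adjusted p = 0.1004), although its siRNA 2 libraries also lay below the control range. The siRNAs differed by -1.62 ± 0.12 (adjusted p = 2.43e-05). The siRNA 2 value passed in 3 of 18 alternatives, among them without siRNA 1 library 2 or library 3 (adjusted p = 0.0425 and 0.017).

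WARS2, the mitochondrial tryptophan enzyme (ENSG00000116874, chromosome 1, 119031216 to 119140653), showed the reverse. It had 4.65, 4.70 and 4.77 FPKM in control, 5.62, 5.73 and 6.28 in siRNA 1 and 2.09, 1.99 and 2.17 in siRNA 2 libraries, and none of the groups overlapped. WARS2 fell by 1.23 ± 0.08 with siRNA 2 (adjusted p = 6.57e-06), 2.35-fold, and rose by 0.29 ± 0.08 with siRNA 1 (adjusted p = 0.0180), a difference of 1.52 ± 0.08 (adjusted p = 4.54e-06). The rise with siRNA 1 was lost without control library 1 or siRNA 1 library 3, with adjusted p = 0.0611 for both. An antisense gene shares 4.68% of the WARS2 exon bases.

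MARS2, which charges the mitochondrial methionine tRNA, rose with both siRNAs. It had 3.88, 3.93 and 3.54 FPKM in control, 4.83, 5.63 and 6.04 in siRNA 1 and 7.56, 7.53 and 6.86 in siRNA 2 libraries, forming 3 separate steps. The rises were 0.51 ± 0.10 (adjusted p = 0.00339) and 0.90 ± 0.10 (adjusted p = 0.000111), and the second was the larger by 0.38 ± 0.10 (adjusted p = 0.0146). That difference was lost without siRNA 2 library 1 (adjusted p = 0.0513). The E-box windows of MARS2, the cysteine enzyme CARS2 and the glutamate enzyme EARS2, shown above, were picked by these calls.

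CARS2 had 10.9, 11.4 and 11.03 FPKM in control, 13.1, 14.1 and 12.8 in siRNA 1 and 15.1, 16.03 and 17.1 in siRNA 2 libraries, again 3 steps without overlap. It rose by 0.24 ± 0.06 (adjusted p = 0.0164) and 0.48 ± 0.06 (adjusted p = 0.000358), and the siRNAs differed by -0.24 ± 0.06 (adjusted p = 0.0190). The siRNA 1 call was lost without control library 1 or siRNA 1 library 2 (adjusted p = 0.0592 and 0.055), and the difference without library 3 of siRNA 1 or of siRNA 2 (adjusted p = 0.0594 and 0.0689).

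EARS2 had 1.68, 1.72 and 1.87 FPKM in control, 2.07, 2.66 and 2.73 in siRNA 1 and 2.26, 2.34 and 2.44 in siRNA 2 libraries, both siRNA groups above control. It rose by 0.47 ± 0.11 (adjusted p = 0.0109) and 0.36 ± 0.11 (adjusted p = 0.0290), and the second call was lost without control library 1 or 2 or any siRNA 2 library, with adjusted p from 0.0517 to 0.0912. TARS2, the mitochondrial threonine enzyme, had 5.71, 6.62 and 6.35 FPKM in control, 9.76, 10.6 and 8.20 in siRNA 1 and 9.41, 7.70 and 9.52 in siRNA 2 libraries. It rose by 0.59 ± 0.13 (adjusted p = 0.00623) and 0.45 ± 0.13 (adjusted p = 0.0162), and the second call was lost without control library 1 or siRNA 2 library 1 or 3, with adjusted p from 0.0545 to 0.058.

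NARS2 and FARS2, the mitochondrial asparagine and phenylalanine enzymes, rose with siRNA 1 and not with siRNA 2. NARS2 had 8.25, 8.12 and 9.13 FPKM in control, 12.9, 11.2 and 11.4 in siRNA 1 and 8.66, 9.15 and 9.07 in siRNA 2 libraries, and the siRNA 1 libraries lay above all others. It rose by 0.45 ± 0.09 (adjusted p = 0.00372), with 0.02 ± 0.09 for siRNA 2 and a difference of 0.43 ± 0.09 (adjusted p = 0.00493). FARS2 went to 1.90, 1.57 and 1.52 FPKM with siRNA 1 and 1.19, 1.13 and 0.880 with siRNA 2, against the control values given earlier. It rose by 0.58 ± 0.15 with siRNA 1 (adjusted p = 0.0165), a call lost without control library 3 (adjusted p = 0.0531), and had -0.09 ± 0.15 with siRNA 2, with a difference of 0.67 ± 0.16 (adjusted p = 0.00893). Its lowest count in a library was 336.

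RARS2, the mitochondrial arginine enzyme, had 9.25, 9.72 and 8.56 FPKM in control, 8.32, 9.10 and 8.89 in siRNA 1 and 12.9, 12.1 and 11.7 in siRNA 2 libraries, the last group above all others. It rose by 0.36 ± 0.08 with siRNA 2 (adjusted p = 0.00473), with -0.09 ± 0.08 for siRNA 1 and a difference of -0.45 ± 0.08 (adjusted p = 0.00203). AARS2, the mitochondrial alanine enzyme, rose by 0.21 ± 0.06 with siRNA 2 (adjusted p = 0.0131), and the serine enzyme SARS2 fell by 0.46 ± 0.14 (adjusted p = 0.0234). In the annotation 46.2% of the SARS2 exon bases are shared with a same-strand gene model, AC011455.2, and 10.8% with MRPS12, and its call was lost without control library 3 or siRNA 2 library 1 or 2 (adjusted p from 0.0503 to 0.0799). The number of mitochondrial genes lower with siRNA 2 was accordingly 1 without control library 3 or siRNA 2 library 2, and 4 without control library 2, where HARS2 and VARS2 were added.

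HARS2, IARS2, PARS2, VARS2 and YARS2, the mitochondrial histidine, isoleucine, proline, valine and tyrosine enzymes, passed in none of the contrasts, with log2 fold changes against control from -0.34 (HARS2 with siRNA 2) to 0.32 (PARS2 with siRNA 1). HARS2 lies head to head with HARS1 and shares 437 exon bases with it on the opposite strand, 11.7% of the HARS2 exon bases. VARS2 shares 21.99% of its exon bases with GTF2H4 on the same strand. Among single-library omissions, HARS2 fell with siRNA 2 without control library 2 or siRNA 2 library 1 (-0.48 and -0.49, adjusted p = 0.0369 and 0.0481), VARS2 fell without control library 2 (-0.30, adjusted p = 0.0148), and YARS2 rose with siRNA 1 without siRNA 1 library 1 (0.46, adjusted p = 0.0277). The differences between the siRNAs of HARS2 (0.44, adjusted p = 0.0401) and VARS2 (0.28, adjusted p = 0.016) passed without control library 2, and that of HARS2 also without siRNA 2 library 1 (0.58, adjusted p = 0.032).

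The balance between the cytosolic and mitochondrial enzyme of one amino acid was followed as the ratio of their FPKM in each library, for 17 pairs in which EPRS1 and FARS2 each enter more than once. These ratios were not tested. For leucine, log2(LARS1/LARS2) was -0.23, -0.15 and -0.34 in control, 1.93, 2.01 and 1.52 in siRNA 1 and 0.53, 0.52 and 0.45 in siRNA 2 libraries. By FPKM the cytosolic transcript was thus the lower of the pair in control cells, at 0.846 times the mitochondrial one. It was the higher at 3.54 times with siRNA 1 and 1.42 times with siRNA 2, with no overlap between groups. Which of the pair is higher depends on the transcript lengths used for FPKM. In counts LARS1 was the higher in every library, at 5919 or more against at most 5079 for LARS2. For tryptophan, log2(WARS1/WARS2) was 1.26, 1.33 and 1.16 in control, 0.19, 0.50 and 0.48 in siRNA 1 and 2.52, 2.81 and 2.37 in siRNA 2 libraries. That ratio was 2.38 in control, 1.31 in siRNA 1 and 5.93 in siRNA 2 cells, and the groups again did not overlap.

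For cysteine the ratio CARS1/CARS2 was 0.293 in control, 0.220 in siRNA 1 and 0.538 in siRNA 2 cells. For methionine MARS1/MARS2 was 6.73, 3.39 and 5.86 in control, siRNA 1 and siRNA 2 cells, with MARS1 lower and MARS2 higher under siRNA 1. For threonine TARS1/TARS2 was 5.46, 3.09 and 5.32 in the same order, and for serine SARS1/SARS2 was 3.81, 5.24 and 7.45. For proline EPRS1/PARS2 was 9.80, 7.93 and 18.0, and for glutamate EPRS1/EARS2 was 18.7, 13.7 and 28.6. For phenylalanine FARSB/FARS2 was 7.24, 6.95 and 8.08 and FARSA/FARS2 was 26.3, 20.7 and 27.5. The arginine ratio RARS1/RARS2 was 1.41, 1.46 and 1.15, and each siRNA 2 library lay below every control library. In the same order the remaining ratios were 1.05, 0.846 and 1.25 for alanine and 0.254, 0.382 and 0.381 for histidine. They were 0.391, 0.417 and 0.609 for isoleucine and 4.31, 3.20 and 5.97 for asparagine. Valine had 2.47, 3.16 and 3.89, and tyrosine 1.24, 1.14 and 1.99. With siRNA 2 the mean ratio was below control for methionine, threonine and arginine only, and above it for all other pairs.

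**Figure D4:**
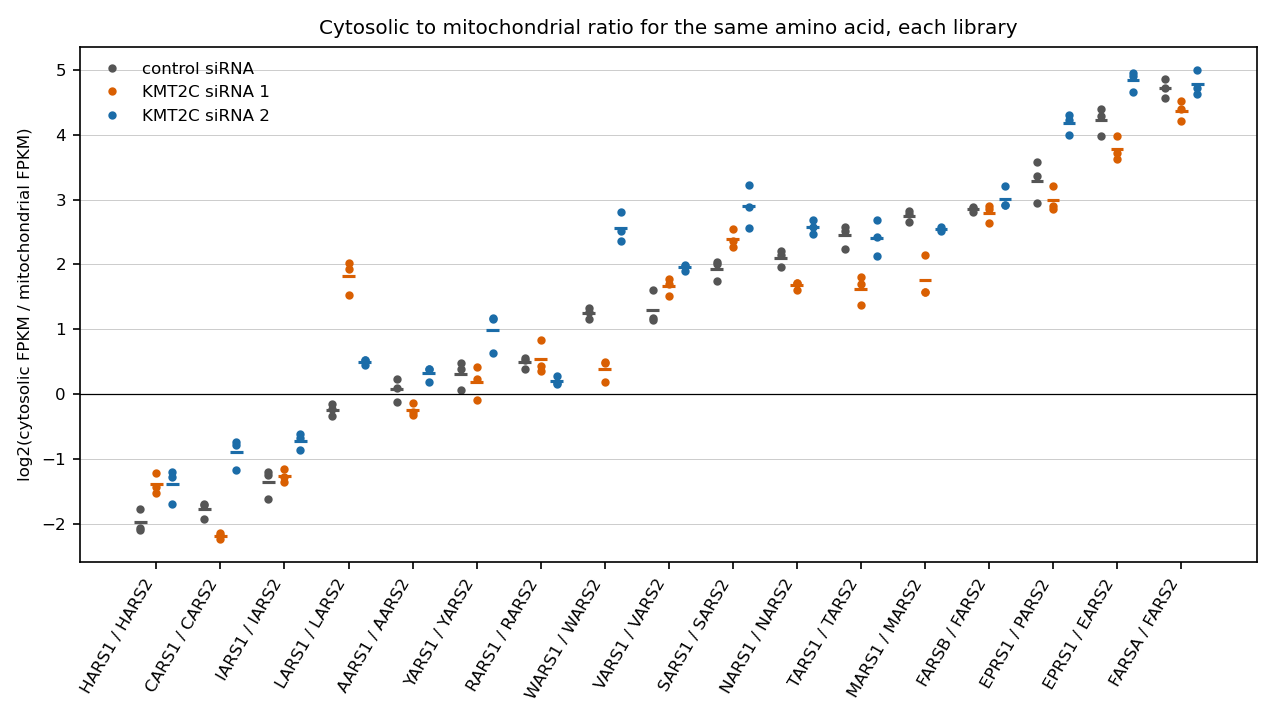
Log2 ratio of cytosolic to mitochondrial FPKM for 17 pairs, ordered by the control mean; points are libraries and short lines means of 3. The leucine pair is highest with siRNA 1 (1.52 to 2.01) and the tryptophan pair highest with siRNA 2 (2.37 to 2.81), with control libraries apart from both.

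Other genes of tRNA charging were taken as lists. Of the mitochondrial route to glutaminyl-tRNA and formylmethionyl-tRNA, the amidotransferase subunit gene GATC fell by 0.28 ± 0.10 with siRNA 2 (adjusted p = 0.0468) and the formyltransferase gene MTFMT rose by 0.28 ± 0.10 with siRNA 1 (adjusted p = 0.0485). QRSL1, the catalytic subunit, had -0.05 and 0.16 and did not pass, and GATB was below the expression filter. Of 7 tested genes of other charging and proofreading steps, 2 rose and none fell with siRNA 1. With siRNA 2, 3 of them rose and 1 fell. Over all genes 21.2% rose and 20.5% fell with siRNA 1, and 24.4% and 24.9% with siRNA 2. The gene that fell was SEPSECS, which makes selenocysteine on its tRNA, by 0.57 ± 0.10 with siRNA 2. It had -0.21 ± 0.10 under siRNA 1, which did not pass.

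Of 8 cytosolic elongation genes 6 rose with siRNA 1 and 4 with siRNA 2, and none fell, where 21.2% and 24.4% of all genes tested rose. The translocase gene EEF2 rose by 0.80 ± 0.05 and 0.52 ± 0.05, EEF1D, of the exchange factor complex, by 0.73 ± 0.08 and 0.69 ± 0.08, and EEF1A2, which carries charged tRNA to the ribosome, by 0.88 ± 0.15 and 0.63 ± 0.15. Of 8 tested mitochondrial translation factor genes 2 rose and 1 fell with siRNA 1 and 3 rose with siRNA 2, with the shares over all genes at 21.2% higher and 20.5% lower for siRNA 1 and 24.4% and 24.9% for siRNA 2. The initiation factor gene MTIF2 rose by 0.40 ± 0.08 and 0.59 ± 0.08, the elongation factor gene TUFM by 0.35 ± 0.06 and 0.25 ± 0.06, and GFM2, of ribosome recycling, rose by 0.21 ± 0.07 with siRNA 2 with 0.18 ± 0.07 for siRNA 1.

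Of 24 tRNA processing and export genes 3 rose and 4 fell with siRNA 1, and 6 rose and 3 fell with siRNA 2, near or below the shares over all genes. TSEN34, a subunit of the tRNA splicing endonuclease, fell by 1.12 ± 0.09 with siRNA 2 with -0.08 ± 0.09 for siRNA 1, the RNase P subunit gene POP1 rose by 0.57 ± 0.17 and 0.97 ± 0.17, and the tRNA ligase gene RTCB fell by 0.41 ± 0.07 and 0.41 ± 0.07. Of 20 genes of RNA polymerase III transcription 5 rose and 2 fell with siRNA 1, and 2 rose and none fell with siRNA 2, near the share of all genes for the rises with siRNA 1 (21.2%) and below it for the others. GTF3C6, of the initiation factor TFIIIC, rose by 0.60 ± 0.09 with siRNA 1 and MAF1, a repressor of the polymerase, by 0.57 ± 0.09, with 0.19 and 0.20 for siRNA 2, which did not pass.

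Genes of the integrated stress response and of amino acid supply also split between the siRNAs. Of 33 tested genes 24 rose and 1 fell with siRNA 2, with a median of 0.80, where 24.4% of all genes rose and 24.9% fell. Under siRNA 1, 7 rose and 5 fell, with a median of 0.09, near or below the 21.2% and 20.5% of all genes. In the direct contrast 22 were lower and 3 higher with siRNA 1, where 18.9% and 20.6% of all genes were. VLDLR, a lipoprotein receptor gene, rose by 1.19 ± 0.07 with siRNA 2, CBS, which makes cystathionine, by 0.90 ± 0.06 and the transcription factor gene CEBPB by 1.73 ± 0.14, with 0.08 and 0.09 for siRNA 1, which did not pass, and a rise of 0.52 for CEBPB.

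PSAT1, ASNS, SLC7A11, CHAC1 and ATF4 are named after their values were seen. All 5 were lower with siRNA 1 in the direct contrast, so they do not show the range of the list. The 3 genes of the list that were higher with siRNA 1 differed by 0.50 to 1.23. PSAT1, of serine synthesis, had 31.6, 31.1 and 22.6 FPKM in control, 7.17, 7.30 and 7.65 in siRNA 1 and 76.7, 81.3 and 60.03 in siRNA 2 libraries, without overlap. It fell by 1.97 ± 0.15 with siRNA 1 (adjusted p = 3.15e-05) and rose by 1.30 ± 0.15 with siRNA 2 (adjusted p = 0.000119), so its calls were opposite, as for MARS1. ASNS, asparagine synthetase, rose by 1.82 ± 0.25 and the cystine transporter gene SLC7A11 by 2.54 ± 0.27 with siRNA 2, with 0.46 ± 0.24 and -0.29 ± 0.26 for siRNA 1, which did not pass. CHAC1, which degrades glutathione, fell by 2.14 ± 0.41 with siRNA 1 (adjusted p = 0.00344), with 0.96 ± 0.39 for siRNA 2 (adjusted p = 0.0716).

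ATF4 itself, whose activity is set mainly by translation of its mRNA, passed with neither siRNA. It had 17.2, 31.96 and 15.8 FPKM in control, 15.1, 13.8 and 13.8 in siRNA 1 and 46.2, 25.8 and 21.7 in siRNA 2 libraries, and the siRNA 2 libraries overlapped control. Its log2 fold changes were -0.63 ± 0.33 (adjusted p = 0.166) and 0.47 ± 0.33 (adjusted p = 0.272), while the difference of -1.10 ± 0.34 between the siRNAs passed (adjusted p = 0.0299). Protein levels were not measured.

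**Figure D5:**
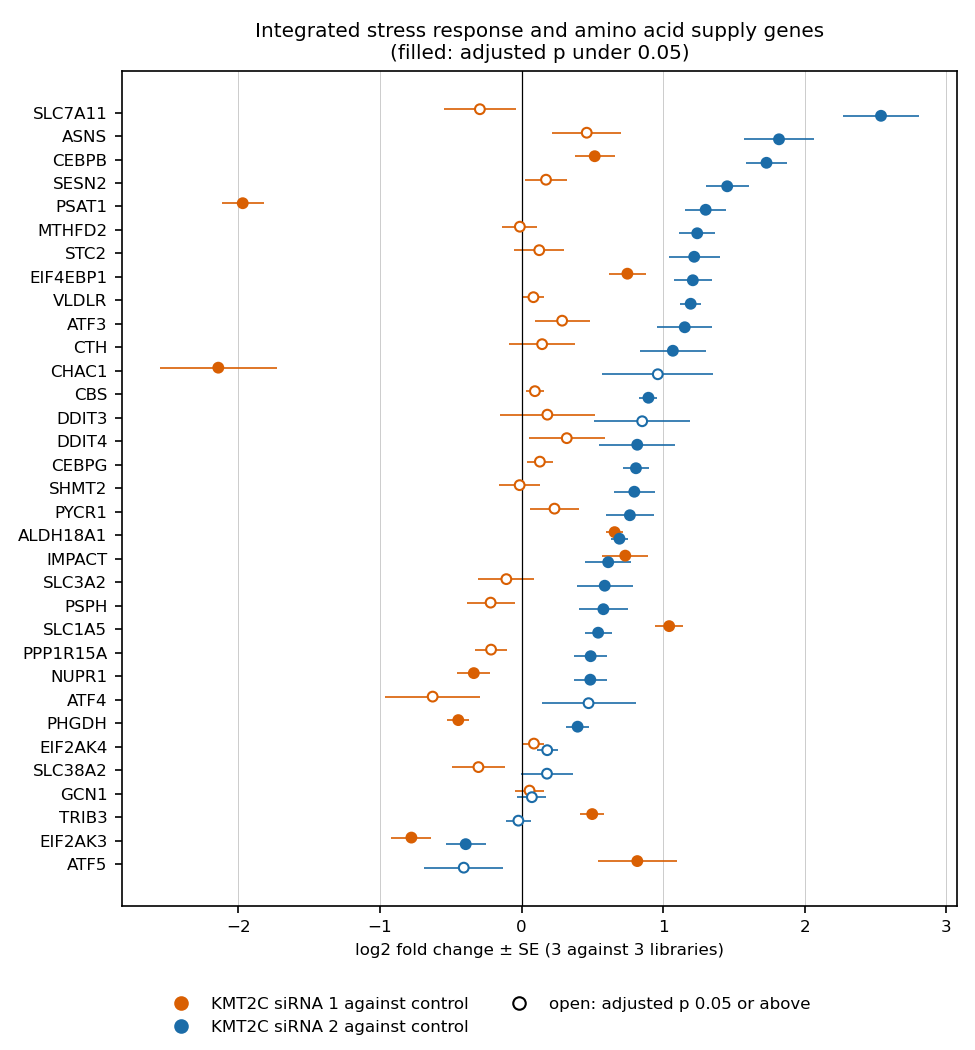
Log2 fold change ± SE of 33 integrated stress response and amino acid supply genes with siRNA 1 (orange) and siRNA 2 (blue) against control; filled points have an adjusted p under 0.05. With siRNA 2, 24 points are filled to the right of 0 and 1 to the left, and PSAT1, PHGDH and NUPR1 have filled points on both sides.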

How the data were processed

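RNA sequencing data of 9 VCaP libraries were analysed from 1 deposited table. Per the file headers it holds counts and FPKM. The first are estimated counts per gene, deposited by the authors as whole numbers that were not normalized, so rounding changed none of them. FPKM was calculated by the authors, who list a gene that has no count at 0.0001 or lower. The submitters' processing notes name Bowtie 0.12.2 and, without a role, the builds hg38 and mm8. Which tool counted the reads, on which annotation, and whether strand was kept is not stated in these sources. GENCODE 29, which holds 58394 of the gene identifiers, was used for exon overlaps. Processed pseudogenes of the members in the table were at most 0.0369 FPKM.

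Genes that reached an FPKM of 1 in 3 or more libraries were tested with edgeR 4.0.16 (TMM scaling, quasi-likelihood F test, 1 mean per group over all 9 libraries, 2-sided) in R 4.3.3, with Benjamini-Hochberg adjustment over 12830 genes at 0.05. The SE of a log2 fold change is its size over the square root of F. The procedure was tested on simulated data. Alternatives were other scalings, DESeq2 1.42.0, limma 3.58.1 on log2(FPKM + 1) and log2(FPKM + 0.1), other filters, counts divided by 4 (for the case that about 4 counts stand for 1 fragment), only the groups compared, a replicate block and leaving out each library. The members and gene lists were chosen with earlier results of these data known, so no test over a list was made. Per-library values are given for members called in one direction with both siRNAs, for those whose difference between the siRNAs passed, and for the highest and lowest of each class. For other lists up to 3 genes with the smallest adjusted p are named, and all genes of the scaffold and amidotransferase lists. The listed name TARSL2 is an older symbol of TARS3 and matched no further row. A few genes of these lists are not reported here. All samples had a group, and no value column was left out.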

Additional observations from a re-analysis of the deposited data

Results flagged for a closer look

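In 22 of the 35 members the effect of siRNA 1 differed from that of siRNA 2 in the direct contrast of the siRNA groups (edgeR, adjusted p under 0.05). The values are log2 differences, siRNA 1 minus siRNA 2. Lower with siRNA 1 were LARS2 (-1.62), CARS1 (-1.53), MARS1 (-1.17), EPRS1 (-0.96), YARS1 (-0.75), AARS1 (-0.69), TARS1 (-0.66) and WARS1 (-0.64). Smaller differences in that direction were those of IARS1 (-0.48), NARS1 (-0.47), RARS2 (-0.45), MARS2 (-0.38), SARS1 (-0.37), LARS1 (-0.32) and CARS2 (-0.24). Higher with siRNA 1 were GARS1 (0.25), FARSA (0.27), NARS2 (0.43), HARS1 (0.46), FARSB (0.46), FARS2 (0.67) and WARS2 (1.52). LARS2 and WARS2, which serve mitochondria, stand at the ends of this order. Over all genes tested 20.6% were called higher and 18.9% lower in the same contrast, so a difference between the siRNAs was common. The 7 of 35 members higher with siRNA 1 are close to that background, and the 15 of 35 lower are a larger share.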

How the results depend on the processing

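No log2 fold change of a member that was called changed sign under the alternatives run, and no scaling moved a count over 1.5 times. Requiring a mean FPKM of at least 5, which removes 9 members, gave 10 in place of 16 members called with siRNA 1, 3 cytosolic and 4 mitochondrial genes higher and 0 mitochondrial genes lower with siRNA 1, 0 mitochondrial genes lower with siRNA 2, 2 cytosolic and 1 mitochondrial genes higher with siRNA 1 than with siRNA 2, and 5 called alike with both siRNAs. With no filter 5 were called alike with both, and 2 mitochondrial genes were lower with siRNA 1 than with siRNA 2. Leaving out 1 library at a time gave 12 to 16 members called with siRNA 1, 18 to 22 with siRNA 2 and 19 to 23 between the siRNAs, and 3 to 8 called alike with both. Cytosolic genes higher with siRNA 2 numbered 12 to 13 and lower 0 to 0, and with siRNA 1 they numbered 4 to 5 higher and 2 to 3 lower. Between the siRNAs 2 to 4 were higher and 11 to 12 lower with siRNA 1, the 2 without siRNA 1 library 2 or any siRNA 2 library. Mitochondrial genes numbered 5 to 8 higher and 1 to 1 lower with siRNA 1, 4 to 6 higher and 1 to 4 lower with siRNA 2, and 3 to 5 higher and 3 to 4 lower between the siRNAs, the 5 without control library 2. KMT2C ranged from -2.98 to -2.69 with siRNA 1 and from -3.02 to -2.95 with siRNA 2. Over all 19 alternatives its smallest changes were -2.28 and -2.36, both from limma on log2(FPKM + 1). The replicate numbers did not pair the libraries, since deviations of same-numbered libraries correlated between -0.07 and 0.04. With the replicate number as a block 15 members were called with siRNA 1, 21 with siRNA 2 and 22 between them, and 7 alike with both, LARS1 being lost. The cause of these changes was not tested, except that fewer genes or libraries enter by construction. The 3 libraries per group limit the precision. Calls lost without a single library included changes as large as that of FARS2 with siRNA 1 (0.58) and SARS2 with siRNA 2 (-0.46).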
